A study of Homo sapiens with 12 samples.

Results

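The Eph receptors and their membrane-bound ligands, the ephrins, were followed here in 2 human lines of anaplastic thyroid carcinoma, the undifferentiated form of thyroid cancer. The members were the 8 genes EPHA2, EPHA4, EPHB2, EPHB4, EFNA1, EFNA5, EFNB1 and EFNB2, taken by gene symbol from the 58735 genes of the deposited tables. KHM-5M carries BRAF V600E, which leaves this kinase permanently switched on, and was grown in RPMI-1640. TTA-1 is labelled BRAF WT (wild type) and was grown in DMEM. Both media held fetal bovine serum. Each line received DMSO, the vehicle, or GDC-0994 at 1 µM (ravoxertinib, which blocks the kinases ERK1 and ERK2) for 24 hours, with 3 libraries in each of the 4 groups. Each BRAF state is represented by 1 line and 1 medium, so line, genotype and medium cannot be told apart. The labels do not say whether the 3 libraries of a group came from separate cultures, and the p-values measure only the spread between these libraries.

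Eph receptors are receptor tyrosine kinases, and both they and the ephrins sit in the plasma membrane, so that signalling takes place where cells touch. The A-class ephrins (EFNA genes) are held by a lipid anchor and mostly bind EphA receptors. The B-class ephrins (EFNB genes) span the membrane and mostly bind EphB receptors, and EPHA4 also binds B-class ephrins. Forward signalling runs into the receptor-bearing cell, largely through small GTPases that shape the cytoskeleton, and reverse signalling runs into the ephrin-bearing cell. EPHA2 is widely studied in epithelial tumours, where its kinase-dependent signalling after ligand binding and its ligand-independent signalling have different effects on cell movement.

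The 4 members whose response to GDC-0994 differed between the lines (EPHA2, EFNA1, EFNA5 and EFNB2) are shown first by the DNA just before their start, where transcription factors bind. Each run holds the 250 bases before the start of transcription, 5′ to 3′ on the gene's own strand, from the RefSeq promoter table on GRCh38.p14. Capitals mark the letters GGGCGG, a binding motif of SP1, or their reverse complement, with overlapping matches counted separately. The RefSeq start can differ from the outer gene bound given with each gene further on.
EPHA2 (chr1:16156070-16156319, minus strand): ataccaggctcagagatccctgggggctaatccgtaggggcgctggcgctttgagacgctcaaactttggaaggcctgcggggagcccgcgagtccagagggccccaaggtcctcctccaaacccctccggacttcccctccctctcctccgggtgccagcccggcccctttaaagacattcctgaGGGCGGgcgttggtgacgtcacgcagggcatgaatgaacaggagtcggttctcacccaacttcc
EFNA1 (chr1:155127626-155127875, plus strand): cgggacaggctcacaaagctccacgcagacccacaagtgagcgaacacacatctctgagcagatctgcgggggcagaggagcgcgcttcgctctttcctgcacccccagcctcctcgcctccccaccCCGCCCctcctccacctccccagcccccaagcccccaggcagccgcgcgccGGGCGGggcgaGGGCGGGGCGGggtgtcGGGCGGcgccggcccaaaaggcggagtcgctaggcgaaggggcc
EFNA5 (chr5:107670938-107671187, minus strand): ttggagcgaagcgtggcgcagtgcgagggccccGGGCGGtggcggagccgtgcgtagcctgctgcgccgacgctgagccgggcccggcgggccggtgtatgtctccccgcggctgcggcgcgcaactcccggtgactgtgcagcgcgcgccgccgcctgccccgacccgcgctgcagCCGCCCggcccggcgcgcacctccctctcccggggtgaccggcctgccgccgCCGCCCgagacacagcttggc
EFNB2 (chr13:106535663-106535912, minus strand): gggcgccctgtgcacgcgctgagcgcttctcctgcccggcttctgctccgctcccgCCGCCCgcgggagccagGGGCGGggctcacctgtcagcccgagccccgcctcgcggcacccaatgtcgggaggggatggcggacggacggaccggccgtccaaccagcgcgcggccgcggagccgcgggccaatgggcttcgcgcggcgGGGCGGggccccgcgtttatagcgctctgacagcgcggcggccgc
The SP1 letters appeared 5 times before EFNA1, 3 times before EFNA5, 3 times before EFNB2 and 1 time before EPHA2. All 8 members matched the table, with 10 windows of 300 bases (250 before and 50 after the start). The SP1 letters stood in 10 of the 10 windows, with 1 to 5 matches per window, against 45.0% of all 35116 promoters of the same length. The letters CCGGAA of an ETS site, TGANTCA of an AP-1 site and CACGTG of an E-box, each searched on both strands, stood in 0 of the 10 windows. They stood in 17.2%, 7.71% and 7.26% of all promoters, in the same order. These are matches of letters in this window only. The windows of EPHB2 lie 1 base apart and hold the same SP1 match. The SP1 letters are all G or C, and the windows held 43.0% to 83.0% GC. The part of base composition in these shares was not tested.

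The libraries are bulk RNA, in which fewer cells of a type and less RNA per cell cannot be told apart. Total counts ranged from 14952970 to 18389915 per library. Polyadenylated RNA was counted per gene without strand information, and 16218 genes had enough counts to be tested. TTA-1 DMSO replicates 1 and 2 and KHM-5M GDC-0994 replicates 1 and 3 stood apart from their groups. Across 7944 genes, the correlation between GC content and a library's log2 ratio to the others of its group was 0.778, -0.740, 0.639 and -0.605 in these 4 libraries, and -0.440 to 0.336 in the other 8. Of 8 transcripts used as a readout of ERK activity, among them DUSP6 and ETV4, 8 fell in KHM-5M (median log2 fold change -2.99) and 7 fell in TTA-1 (median -1.08). Of all tested genes 25.1% fell in KHM-5M and 2.24% in TTA-1. Of 9 markers of differentiated thyroid cells, 2 or 3 reached 1 CPM in each group. TG, the thyroglobulin gene, had 0 counts in both KHM-5M groups and 2 counts in each TTA-1 group. PAX8, a thyroid transcription factor, went from 210.2 to 120.2 CPM (counts scaled to library size, TMM) with treatment in KHM-5M and stood at 3.59 and 3.65 CPM in TTA-1. DIO2, a deiodinase that activates thyroid hormone, stood at 423 and 431 CPM in TTA-1 and rose from 0.153 to 2.94 CPM in KHM-5M.

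In KHM-5M EPHA2, EPHB2, EFNA5, EFNB1 and EFNB2 fell under GDC-0994, EFNA1 rose, and EPHB4 was not called. EPHA4 had few counts and entered the test only through treated KHM-5M, the group where it is high, so it is counted apart. In TTA-1, EPHA2 and EPHB2 fell and the other 6 members were not called. Calls, and the words rose and fell, rest on an adjusted p below 0.05 in edgeR's quasi-likelihood test, adjusted by the Benjamini-Hochberg method over all genes tested. Of the 7 members other than EPHA4, 6 were called in KHM-5M (1 higher, 5 lower; 2 higher with EPHA4), beside 49.8% of all tested genes called there, 24.6% higher and 25.1% lower. The 2 members called in TTA-1 (0 higher, 2 lower) stood beside 3.43% of all genes called, 1.18% higher and 2.24% lower. The TTA-1 counts turned on single libraries: without DMSO replicate 2, 4 members were lower and 2620 genes were called in place of 556. Without DMSO replicate 1 or 3, or GDC-0994 replicate 2 or 3, 1 member was lower. The median log2 fold change of these 7 members was -0.51 in KHM-5M and -0.24 in TTA-1 (-0.49 and -0.20 with EPHA4), against 0.02 and 0.01 over all tested genes. The treated and control libraries did not overlap for 6 of the 7 in KHM-5M, beside 61.0% of all tested genes, and for 4 in TTA-1, beside 18.8%. These counts describe the members and do not rank them against other genes.

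**Figure D1:**
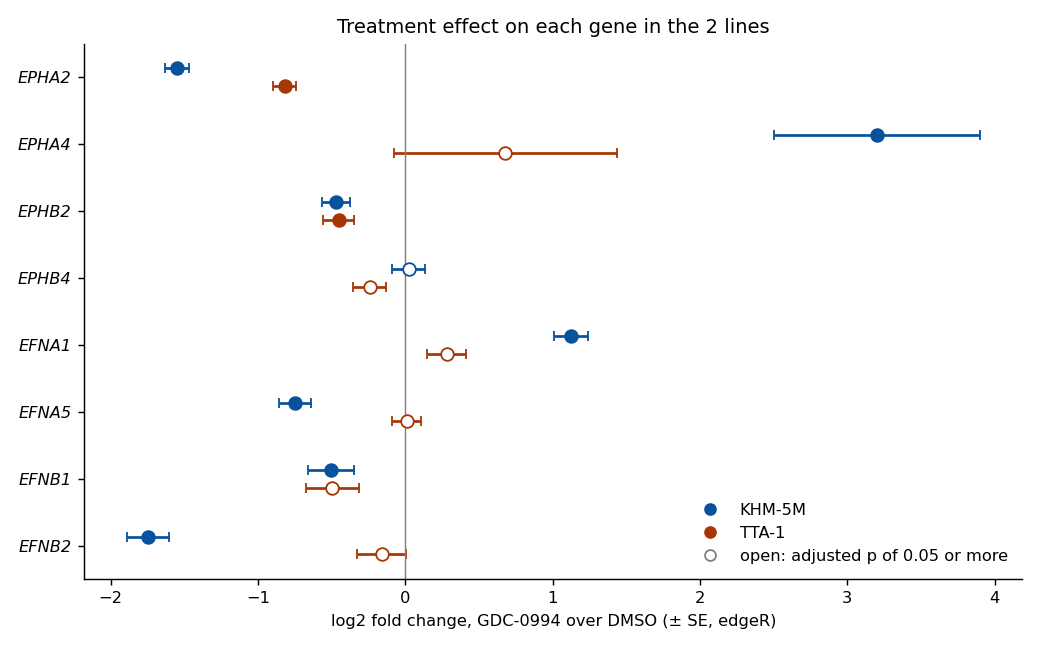
Log2 fold change of GDC-0994 over DMSO (x axis, ± SE from edgeR) for the 8 members (y axis) in KHM-5M and TTA-1, with filled points for an adjusted p below 0.05 and open points otherwise. The points of the 2 lines lie far apart for EFNB2 (-1.75 and -0.16) and close together for EPHB2 (-0.47 and -0.45).

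The effect of GDC-0994 differed between the lines for 4 members, by the test of the difference itself. The difference (KHM-5M minus TTA-1) was lower for EPHA2, EFNA5 and EFNB2 and higher for EFNA1. These 4 calls (1 higher, 3 lower) stood beside 27.9% of all tested genes, 12.3% higher and 15.6% lower. Without TTA-1 DMSO replicate 1 the members higher numbered 2, with EPHA4 added. Without replicate 2 they numbered 3, with EPHA4 and EPHB4 added. EPHA4 is under the limit of the filter given above. EPHB2, EPHB4, EPHA4 and EFNB1 were not called for the difference, which does not show that the lines responded alike.

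EPHA2, the A-class receptor (ENSG00000142627, GRCh38 chromosome 1, 16124337 to 16156087, minus strand), had the highest level per length of the 8 in TTA-1 and in KHM-5M DMSO. It stood at 169.6, 164 and 153 CPM in KHM-5M DMSO and at 57.5, 58.0 and 50.7 CPM with treatment. In TTA-1 it stood at 315, 276 and 298 CPM in DMSO and at 169.8, 176 and 158 CPM in GDC-0994. Treated and control libraries were fully apart in both lines, and TTA-1 under GDC-0994 overlapped KHM-5M in DMSO. EPHA2 fell 2.92-fold in KHM-5M, a log2 fold change of -1.55 ± 0.08 (SE, adjusted p = 9.35e-11). In TTA-1 it fell 1.76-fold, with a log2 fold change of -0.82 ± 0.08 (adjusted p = 7.84e-06). The fall was deeper in KHM-5M by 0.73 ± 0.11 on the log2 scale (difference -0.73, adjusted p = 8.31e-05). KHM-5M held less EPHA2 than TTA-1 in DMSO (-0.87 ± 0.08, adjusted p = 2.06e-08) and under GDC-0994 (-1.60 ± 0.08, adjusted p = 8.97e-12).

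EPHA4, a receptor that binds ephrins of both classes (ENSG00000116106, chromosome 2, 221418027 to 221574202, minus strand), was near the limit of detection. In KHM-5M its counts were 4, 1 and 1 in DMSO and 19, 16 and 24 under the inhibitor. In TTA-1 they were 1, 1 and 9 in DMSO and 2, 9 and 6 under the inhibitor. The 3 treated KHM-5M libraries were above the other 9, and the other 3 groups overlapped. In KHM-5M EPHA4 stood at 0.114 ± 0.097 CPM in DMSO and 1.12 ± 0.311 CPM under the inhibitor (SD, n = 3). The fitted log2 fold change was 3.20 ± 0.70 (adjusted p = 0.00109), but the filter let EPHA4 into this test only for its level in the treated group. With no filter on any gene the value was 3.22 (adjusted p = 5.4e-06). That refit rests on the same few counts and is not separate evidence of a rise. With the filter, leaving out each library in turn gave 2.92 to 4.13, the highest without KHM-5M DMSO replicate 1. The summed counts, 59 against 6, gave a ratio of 9.68 with an exact 95% interval of 4.19 to 27.4, which covers counting error only. In TTA-1 the sums were 17 and 11, a ratio of 1.61 (0.714 to 3.81), and the fitted value was 0.68 ± 0.76 (adjusted p = 0.695). The difference between the lines, 2.52 ± 1.10, was not called (adjusted p = 0.103). It was called without TTA-1 DMSO replicate 1 (2.996, adjusted p = 0.0464) or replicate 2 (2.99, adjusted p = 0.0418). Leaving out each library in turn, the difference ranged from 0.82 to 3.47 and the TTA-1 value from 0.19 to 2.41, so neither is well determined.

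EPHB2, a B-class receptor (ENSG00000133216, chromosome 1, 22710839 to 22921500, plus strand), had its main difference between the lines. It stood at 137, 132 and 129 CPM in KHM-5M DMSO and at 107, 88.0 and 92.0 CPM in KHM-5M GDC-0994. TTA-1 levels were 31.5, 24.7 and 28.95 CPM in DMSO and at 22.7, 20.3 and 19.3 CPM in GDC-0994. The 4 groups did not overlap. EPHB2 was 4.67-fold higher in KHM-5M than in TTA-1 in DMSO (2.22 ± 0.10 on the log2 scale, adjusted p = 3.74e-12) and higher by 2.20 ± 0.10 under GDC-0994 (adjusted p = 3.98e-12). It fell in KHM-5M (log2 fold change -0.47 ± 0.09, adjusted p = 5.3e-04). In TTA-1 it fell (log2 fold change -0.45 ± 0.11, adjusted p = 0.0253), and this call was lost in 8 of 24 alternatives, where the adjusted p reached 0.167. The test of the difference gave -0.02 ± 0.14 (adjusted p = 0.960). Leaving out TTA-1 DMSO replicate 1 or 3, or TTA-1 GDC-0994 replicate 2 or 3, was enough to lose the TTA-1 call, with adjusted p of 0.102, 0.101, 0.113 and 0.144 in that order.

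EPHB4, a B-class receptor best known as the partner of EFNB2 in veins and arteries (ENSG00000196411, chromosome 7, 100802565 to 100827521, minus strand), showed no called response. It stood at 84.0, 84.0 and 84.7 CPM in KHM-5M DMSO and at 93.5, 83.1 and 79.8 CPM in KHM-5M GDC-0994. The DMSO libraries lay inside the range of the treated ones (0.02 ± 0.11, adjusted p = 0.890). TTA-1 levels were 67.3, 45.2 and 58.7 CPM in DMSO and at 50.5, 47.9 and 46.3 CPM in GDC-0994, again with overlap (-0.24 ± 0.11, adjusted p = 0.282). Its transcripts have a GC content of 61.4%, and in TTA-1 DMSO it was highest in replicate 1 and lowest in replicate 2, the libraries that stood apart by GC. Without replicate 2 EPHB4 fell in TTA-1 (-0.41, adjusted p = 0.00383) and the difference between the lines was 0.46 (adjusted p = 0.00445). KHM-5M held more EPHB4 in DMSO (0.56 ± 0.11, adjusted p = 2.14e-04) and under GDC-0994 (0.83 ± 0.11, adjusted p = 3.41e-06). With trends in GC content and length removed, the DMSO value was 0.05 (adjusted p = 0.484), and the KHM-5M response was 0.16 and called (adjusted p = 0.0207). GC content as the source of these values was not tested beyond this refit.

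**Figure D2:**
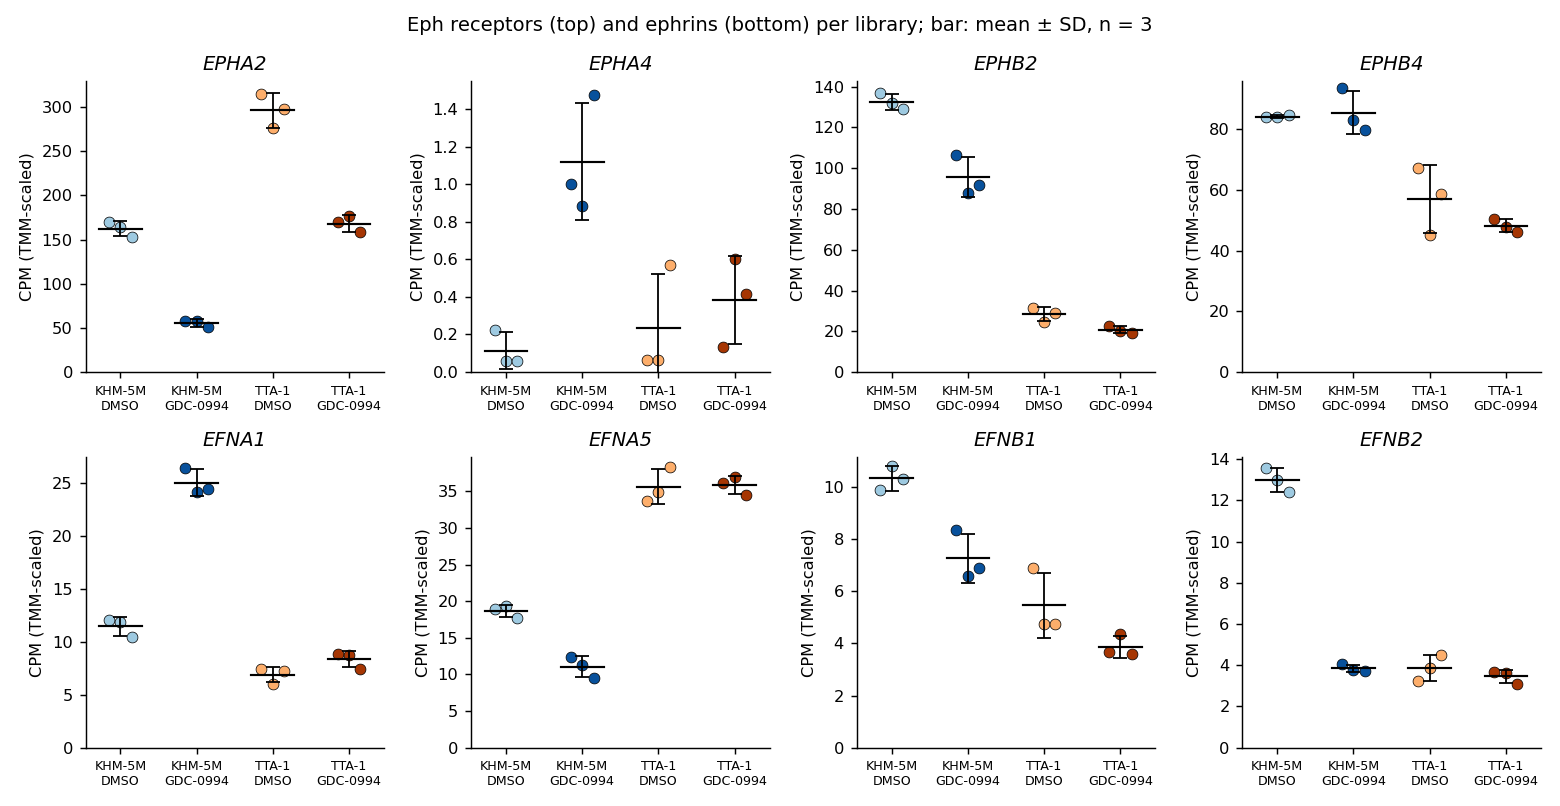
Level in CPM (y axis, starting at 0) of the 4 receptors (top) and 4 ephrins (bottom) in each library of the 4 groups (x axis). Points are libraries and bars are the mean ± SD of 3. EFNB2 in KHM-5M DMSO (12.4 to 13.6 CPM) stands above the other 3 groups (3.11 to 4.48 CPM), and EPHB4 changes little within KHM-5M.

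Among the A-class ligands, EFNA1 rose and EFNA5 fell in KHM-5M. EFNA1, a main ligand of EPHA2 (ENSG00000169242, chromosome 1, 155127460 to 155134857, plus strand), stood at 12.1, 11.8 and 10.4 CPM in KHM-5M DMSO and at 26.4, 24.1 and 24.4 CPM in KHM-5M GDC-0994. The TTA-1 libraries held 7.42, 6.05 and 7.19 CPM in DMSO and at 8.87, 8.76 and 7.47 CPM in GDC-0994. The treated libraries were all above the controls in both lines, by a narrow margin in TTA-1. EFNA1 rose 2.18-fold in KHM-5M (1.13 ± 0.12 on the log2 scale, adjusted p = 4.49e-07). The value in TTA-1 was 0.28 ± 0.13 (adjusted p = 0.287), called at 0.40 (adjusted p = 0.0480) with the GC and length trends removed. The difference between the lines was 0.85 ± 0.18 (adjusted p = 0.00154). KHM-5M held more EFNA1 than TTA-1 in DMSO (0.73 ± 0.13, adjusted p = 5.87e-05) and under GDC-0994 (1.58 ± 0.12, adjusted p = 2.3e-09).

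EFNA5, an A-class ligand best known from axon guidance (ENSG00000184349, chromosome 5, 107376889 to 107670895, minus strand), went the other way. It stood at 18.9, 19.4 and 17.7 CPM in KHM-5M DMSO and at 12.4, 11.3 and 9.51 CPM in KHM-5M GDC-0994. The TTA-1 libraries held 33.7, 34.9 and 38.3 CPM in DMSO and at 36.2, 36.9 and 34.5 CPM in GDC-0994. Both TTA-1 groups were above both KHM-5M groups and overlapped each other. EFNA5 fell in KHM-5M (log2 fold change -0.75 ± 0.11, adjusted p = 2.24e-05). The value in TTA-1 was 0.01 ± 0.10 (adjusted p = 0.994), and its sign turned in 11 of 24 alternatives. The difference was -0.76 ± 0.15 (adjusted p = 8.56e-04). KHM-5M held less EFNA5 in DMSO (-0.93 ± 0.10, adjusted p = 2.91e-07) and under GDC-0994 (-1.69 ± 0.11, adjusted p = 1.72e-10).

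EFNB2, a B-class ligand and a marker of arterial endothelium in the embryo (ENSG00000125266, chromosome 13, 106489731 to 106535662, minus strand), had the lowest log2 fold change of the 8 in KHM-5M. It stood at 13.6, 12.98 and 12.4 CPM in KHM-5M DMSO and at 4.06, 3.76 and 3.74 CPM under the inhibitor. In TTA-1 it stood at 3.26, 3.88 and 4.48 CPM in DMSO and at 3.67, 3.61 and 3.11 CPM in GDC-0994. KHM-5M DMSO was above every other library, and treated KHM-5M overlapped TTA-1 DMSO. EFNB2 fell 3.36-fold in KHM-5M (-1.75 ± 0.14 on the log2 scale, adjusted p = 2.81e-08). On the log2(FPKM + 1) scale, which understates the change of low genes, limma gave -1.003 for EFNB2, closer to 0 than its value for EPHA2. The value in TTA-1 was -0.16 ± 0.17 (adjusted p = 0.665), and the difference was -1.59 ± 0.22 (adjusted p = 3.42e-05). EFNB2 was higher in KHM-5M than in TTA-1 in DMSO (1.74 ± 0.15, adjusted p = 9.49e-09). Under GDC-0994 the lines gave 0.16 ± 0.16 (adjusted p = 0.391), or 0.37 and a call with the GC and length trends removed (adjusted p = 0.0426). Exons of the antisense gene AL138689.2 cover 26.2% of the exon bases of EFNB2. Its 13 counts over all libraries stand against 1222 for EFNB2, and without strand information their reads cannot be told apart.

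EFNB1, the B-class ligand encoded on the X chromosome (ENSG00000090776, 68828997 to 68842147, plus strand), moved less. It stood at 9.87, 10.8 and 10.3 CPM in KHM-5M DMSO and at 8.33, 6.58 and 6.87 CPM under the inhibitor. In TTA-1 it stood at 6.90, 4.74 and 4.73 CPM in DMSO and at 3.67, 4.35 and 3.59 CPM in GDC-0994. Treated libraries were below the controls in both lines, and KHM-5M under GDC-0994 overlapped TTA-1 in DMSO. EFNB1 fell in KHM-5M (log2 fold change -0.50 ± 0.16, adjusted p = 0.0131). This call was lost without KHM-5M DMSO replicate 2 (0.0633), without KHM-5M GDC-0994 replicate 2 (0.0635) or 3 (0.0642), and with the GC and length trends removed (-0.27, adjusted p = 0.0818). The value in TTA-1 was -0.49 ± 0.18 (adjusted p = 0.164), and -0.61 with a call without TTA-1 DMSO replicate 2 (adjusted p = 0.0417). The difference was -0.01 ± 0.25 (adjusted p = 1.0). KHM-5M held more EFNB1 in DMSO (0.92 ± 0.16, adjusted p = 7.4e-05) and under GDC-0994 (0.91 ± 0.18, adjusted p = 1.53e-04).

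Between the lines, the 7 members other than EPHA4 were all called in DMSO (5 higher in KHM-5M, 2 lower), beside 76.5% of all tested genes (39.6% higher, 36.8% lower). Under GDC-0994, 6 of them were called (4 higher, 2 lower), beside 80.1% of all genes (41.0% higher, 39.1% lower). EPHA2 and EFNA5 were the 2 that were lower in KHM-5M under both conditions. EPHA4, under the same limit of the filter, was called under GDC-0994 (1.52 ± 0.58, adjusted p = 0.0238) and not in DMSO (-1.002 ± 0.92, adjusted p = 0.332), and its call was lost without KHM-5M GDC-0994 replicate 3 (1.33, adjusted p = 0.0759) or TTA-1 GDC-0994 replicate 1 (1.15, adjusted p = 0.0990). The libraries of the lines did not overlap for 7 of these 7 members under either condition, beside 77.8% of all tested genes in DMSO and 82.0% under GDC-0994. These 2 comparisons share libraries with the treatment comparisons.

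Levels were compared between genes in FPKM, which divides each count by gene length and library size. The length is that of all annotated exons of a gene together, 12516 bases for EPHB2 and 6435 for EPHB4. The order of genes and the ratios between genes depend on it. In CPM, EPHB2 (132.6) stood above EPHB4 (84.2) in KHM-5M DMSO. In KHM-5M DMSO the mean FPKM ran from EPHA2 (38.5) through EPHB4 (12.9), EPHB2 (10.46), EFNA1 (4.45), EFNA5 (3.23), EFNB1 (3.07) and EFNB2 (2.55) to EPHA4 (0.0149). Under GDC-0994 in this line EPHA2 (13.4) and EPHB4 (13.4) were level, followed by EFNA1 (9.90). In TTA-1 DMSO EPHA2 (69.2) was followed by EPHB4 (8.61), EFNA5 (6.06), EFNA1 (2.63) and EPHB2 (2.20). The summed FPKM of the 4 receptors was 61.9 ± 2.67 (SD, n = 3) in KHM-5M DMSO and 34.6 ± 2.78 with treatment. In TTA-1 it was 80.03 ± 6.48 and 48.1 ± 2.06. In both lines every treated library was below every control. EPHA2 made up 62.2% of the receptor sum in KHM-5M DMSO, 38.8% under GDC-0994, and 86.5% and 81.4% in TTA-1, so the sums largely follow EPHA2.

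**Figure D3:**
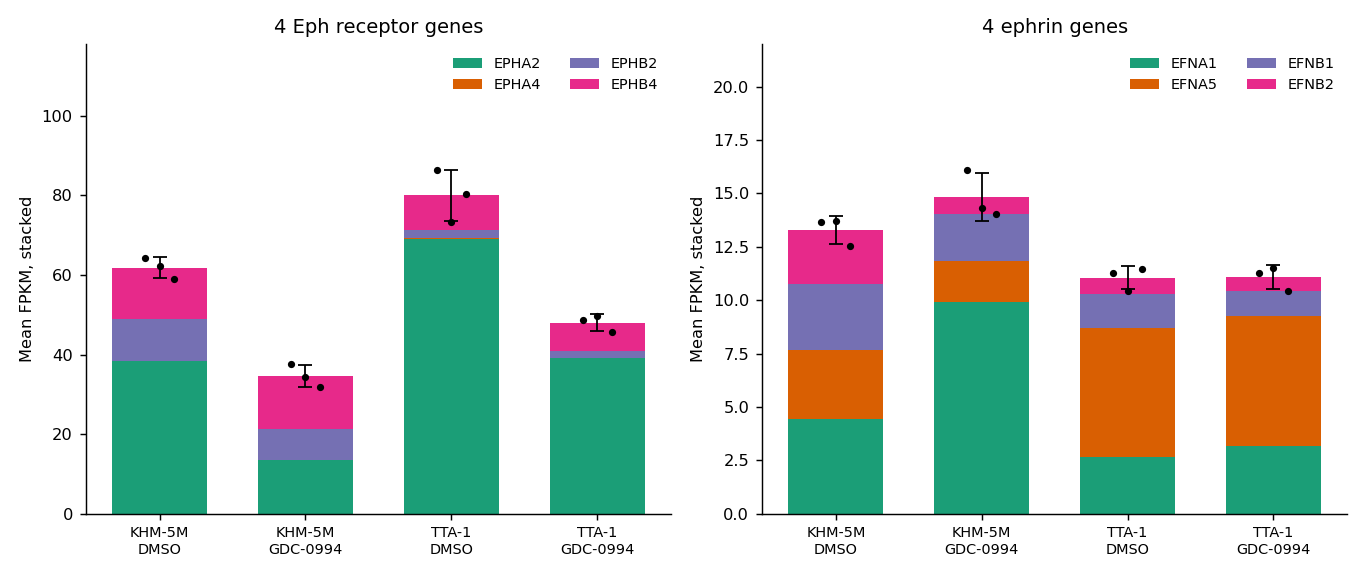
Mean FPKM of the 4 receptors (left) and the 4 ephrins (right), stacked by gene (y axis), in the 4 groups (x axis). Black points are the sums per library and bars their SD over 3 libraries. The mean receptor sum is lower under GDC-0994 in both lines (61.9 to 34.6 in KHM-5M), and the group means of the ephrin sum lie between 11.1 and 14.8.

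The summed FPKM of the 4 ephrins was 13.3 ± 0.656 and 14.8 ± 1.12 in KHM-5M (DMSO and GDC-0994) and 11.1 ± 0.546 and 11.1 ± 0.563 in TTA-1. In KHM-5M the treated libraries (14.03 to 16.1) were all above the controls (12.6 to 13.7), and in TTA-1 the groups overlapped. Within this sum the class totals went apart in KHM-5M. The A-class members stood at 7.68 ± 0.523 and 11.9 ± 0.796, and the B-class members at 5.63 ± 0.146 and 2.98 ± 0.337. The genes of a class did not all move together: EFNA1 rose and EFNA5 fell. EFNB3, a B-class ephrin outside this sum, rose (0.519 to 1.34 FPKM). EFNA1 made up 33.4% of the ligand sum in KHM-5M DMSO and 66.8% under GDC-0994, and EFNB2 made up 19.2% and 5.22%. These shares leave out EFNA4, which is not a member (7.85 and 9.52 FPKM in KHM-5M). In TTA-1 EFNA5 held 55.0% in both groups.

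The ratio of receptor to ligand transcripts was computed within each library. Summed member receptors over summed member ligands gave 4.65 ± 0.101 in KHM-5M DMSO and 2.33 ± 0.0593 under GDC-0994, and 7.24 ± 0.372 and 4.34 ± 0.0353 in TTA-1. These sums leave out the wider family, with EFNA4 at 7.85 FPKM in KHM-5M DMSO. Over the whole family KHM-5M DMSO held 64.5 FPKM of receptors and 22.2 of ephrins. TTA-1 GDC-0994 held 48.6 and 14.4, which reverses the order of these groups in the ratio. EPHA2 over its ligand EFNA1 was 8.58, 8.47 and 8.94 in KHM-5M DMSO and 1.33, 1.47 and 1.27 under GDC-0994. In TTA-1 this ratio was 25.9, 27.8 and 25.3 in DMSO and 11.7, 12.3 and 12.9 under GDC-0994. All 4 groups stood apart in this ratio. The B-class pairs did not show one direction: EPHB2 over EFNB2 was 4.10 ± 0.0759 and 9.92 ± 0.585 in KHM-5M, and 3.01 ± 0.755 and 2.41 ± 0.136 in TTA-1. EPHB4 over EFNB2 was 5.07 ± 0.258 and 17.3 ± 0.663 in KHM-5M. In TTA-1 it was 11.8 ± 3.77 and 10.9 ± 0.649, where DMSO replicate 1 stood at 16.1 and the other two at 9.08 and 10.2. The ratios are of transcripts, and no protein was measured.

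**Figure D4:**
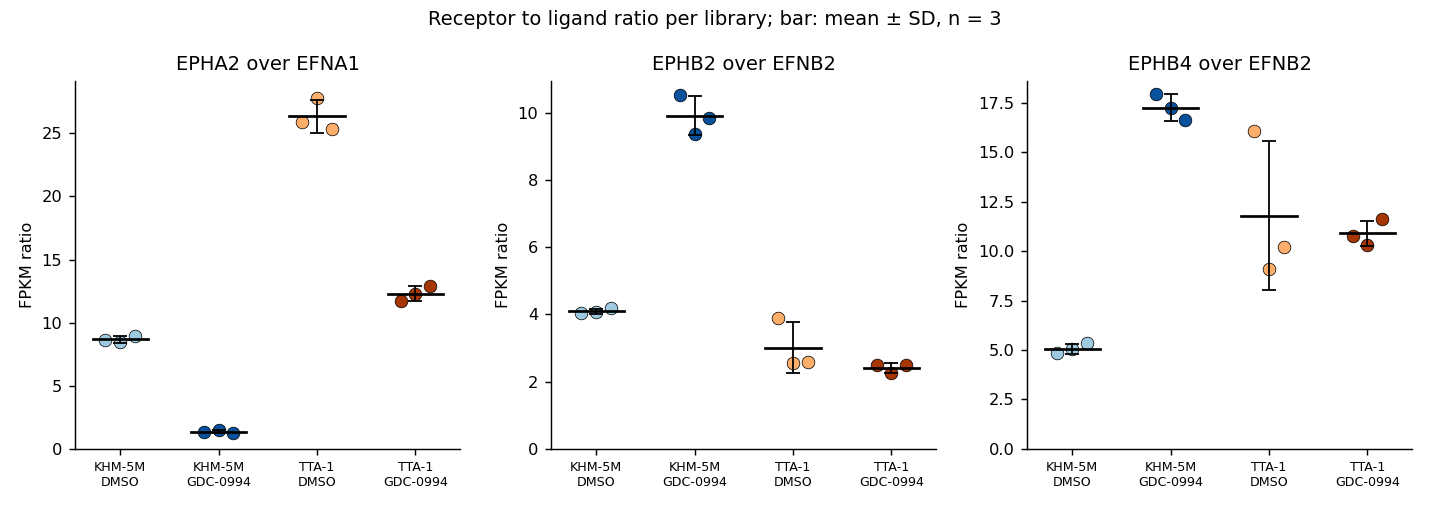
Ratio of receptor to ligand FPKM (y axis, starting at 0) per library in the 4 groups (x axis), with the mean ± SD of 3 libraries. EPHA2 over EFNA1 is lowest in KHM-5M under GDC-0994 (1.27 to 1.47), where EPHB4 over EFNB2 is highest (16.6 to 18.0).

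The wider family holds 10 other Eph receptor genes and 4 other ephrin genes, of which 3 and 4 passed the filter. EPHB1, a B-class receptor (ENSG00000154928), fell in KHM-5M from 17.3, 16.7 and 15.6 CPM to 5.70, 4.48 and 5.22 CPM (-1.69 ± 0.19, adjusted p = 2.94e-06). It had 0 counts in TTA-1 DMSO against 870 in KHM-5M DMSO, at least 256-fold higher in KHM-5M against a floor of 3 counts over the group, and 3 counts in TTA-1 GDC-0994. EPHA5 (ENSG00000145242), an A-class receptor known mainly from the nervous system, rose in KHM-5M from 0.789, 0.635 and 1.26 CPM to 5.33, 7.80 and 6.32 CPM (2.85 ± 0.31, adjusted p = 2.5e-06), and had 0 counts in TTA-1 DMSO. EFNB3, the remaining B-class ephrin (ENSG00000108947), rose in KHM-5M from 1.75, 2.08 and 1.26 CPM to 3.902, 4.98 and 3.99 CPM (1.34 ± 0.29, adjusted p = 9.31e-04). They were the only tested genes of the wider family called in KHM-5M (1 of 3 receptors rose and 1 fell, 1 of 4 ephrins rose), beside 49.8% of all tested genes. In each of these 3 genes the treated and control KHM-5M libraries did not overlap, beside 61.0% of all tested genes. The same held for EFNA3 and EFNA4, which were not called.

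EFNA4, an A-class ephrin whose gene lies next to EFNA3 and EFNA1 on chromosome 1 (155063731 to 155069553, plus strand), was the highest ephrin of the wider family. It stood at 7.85 ± 0.992 FPKM in KHM-5M DMSO and 9.52 ± 0.768 in GDC-0994, and at 1.50 ± 0.474 and 1.86 ± 0.551 in TTA-1. It was not called for treatment in KHM-5M (0.25 ± 0.18, adjusted p = 0.254) or TTA-1 (0.30 ± 0.26, adjusted p = 0.600), and was higher in KHM-5M DMSO than in TTA-1 DMSO (2.35 ± 0.22, adjusted p = 3.59e-08). EFNA3 (155078872 to 155087538) stood at 0.973 and 0.583 CPM in KHM-5M (-0.73 ± 0.39, adjusted p = 0.133). EFNA2 stood at 1.17 and 1.28 CPM in TTA-1 and had 1 count in all of KHM-5M DMSO. EPHA7 had 0 counts in both KHM-5M groups and stood at 1.92 and 2.53 CPM in TTA-1 (89 counts in DMSO, at least 33.6-fold higher than in KHM-5M DMSO). EPHA1, EPHA3, EPHA6, EPHA8, EPHA10, EPHB3 and EPHB6 were below 1 CPM in every group and were not tested. In TTA-1 0 of the 7 tested genes were called for treatment, beside 3.43% of all tested genes. The difference between the lines was called for EPHB1 (adjusted p = 0.0460), where the TTA-1 side rests on 0 and 3 counts. Over all 14 receptor genes the summed FPKM was 64.5 and 36.3 in KHM-5M and 80.5 and 48.6 in TTA-1, and over all 8 ephrins 22.2, 26.3, 13.9 and 14.4, in the order DMSO and GDC-0994.

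**Figure D5:**
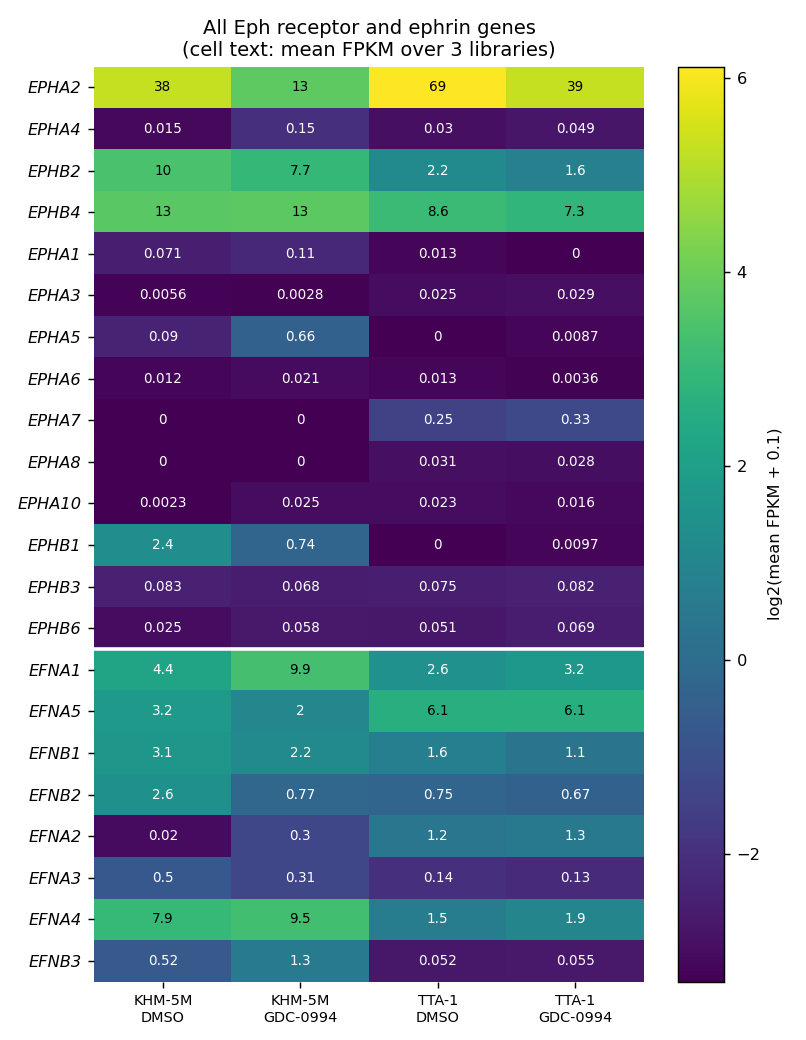
Mean FPKM over 3 libraries (number in each cell) of all 14 Eph receptor and 8 ephrin genes (y axis) in the 4 groups (x axis), coloured by log2(mean FPKM + 0.1). EPHA2 is the highest receptor in 3 groups and level with EPHB4 (13.4 each) in treated KHM-5M, and EPHB1 is at 0 in TTA-1 DMSO.

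Transcripts of proteins that act beneath Eph receptors were called in both directions in KHM-5M, at a share near that of all genes. Of 41 forward signalling genes 40 were tested; 8 rose and 13 fell in KHM-5M (median -0.02), where 24.6% of all tested genes rose and 25.1% fell. In TTA-1, 2 rose and 2 fell (median 0.05), beside 1.18% and 2.24% of all genes. The falls with the smallest p in KHM-5M were DOCK4, an exchange factor for Rac (68.0 to 18.1 CPM, -1.91 ± 0.09, adjusted p = 3.5e-11), PAK1, a kinase activated by Rac and Cdc42 (-0.82 ± 0.09), and the adaptor NCK2 (-0.60 ± 0.08). The rises were TNS3, a tensin of focal adhesions (133 to 277 CPM, 1.06 ± 0.07, adjusted p = 8.29e-10), ITSN1, a scaffold and exchange factor for Cdc42 (0.81 ± 0.07), and WASL, an activator of actin branching (0.57 ± 0.08). In TTA-1 the same-signed calls were TNS3 (0.44, adjusted p = 9.1e-04), ITSN1 (0.32, adjusted p = 0.0144) and DOCK4 (-0.56, adjusted p = 0.00146), together with RIN1, a Rab5 exchange factor that binds EPHA4 (-0.83, adjusted p = 0.00288). RIN1 also fell in KHM-5M (-0.52 ± 0.12, adjusted p = 0.00211). The difference between the lines was called for 15 of the 40, 7 higher and 8 lower. Of all tested genes it was called for 27.9%, 12.3% higher and 15.6% lower.

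The next 2 lists are small and stand beside the same shares of all genes, 49.8% called in KHM-5M and 3.43% in TTA-1. For the difference the share was 27.9%, with 12.3% higher and 15.6% lower. Of 13 genes of ephrin reverse signalling, 5 rose and 3 fell in KHM-5M (median 0.10), and 0 rose and 1 fell in TTA-1 (median -0.11). The rises with the smallest p were STAT3 (0.56 ± 0.08), the phosphatase PTPN13 (0.97 ± 0.14) and PICK1, a PDZ protein (0.83 ± 0.14). The falls were RGS3, which links B-class ephrins to G-protein signalling (-0.69 ± 0.09), the Rac exchange factor TIAM1 (-0.70 ± 0.12), which stands in both signalling lists, and TBC1D24 (-0.35 ± 0.10). RGS3 was the TTA-1 call (-0.46 ± 0.11, adjusted p = 0.0275). For the difference, 3 were higher and 0 lower. Of 15 genes that cut, dephosphorylate or degrade Ephs and ephrins 13 were tested; 6 rose and 4 fell in KHM-5M (median 0.18), and 1 rose and 0 fell in TTA-1 (median 0.05). MMP2, a matrix metalloprotease, rose from 88.5 to 428 CPM (2.27 ± 0.10, adjusted p = 1.1e-11). CBLB, a ubiquitin ligase of receptor kinases, rose in KHM-5M (10.1 to 31.3 CPM, 1.63 ± 0.11, adjusted p = 3.71e-09) and in TTA-1 (38.8 to 64.4 CPM, 0.73 ± 0.10, adjusted p = 5.18e-04). SOCS2 (-0.48 ± 0.11), the ubiquitin ligase subunit FBXL7 (-0.51 ± 0.13) and the phosphatase ACP1 (-0.27 ± 0.08) fell in KHM-5M. For the difference, 3 were higher and 1 lower.

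Markers of other cell types were set beside these values. Their calls stand beside 49.8% of all tested genes called in KHM-5M and 3.43% in TTA-1. Endothelial markers, of interest beside EPHB4 and EFNB2, summed to 0.197 to 3.98 CPM in all 12 libraries, with PECAM1 at 0 in KHM-5M GDC-0994 and CDH5 at 0 in both TTA-1 groups. Of the 3 tested, 1 rose and 2 fell in KHM-5M and 0 were called in TTA-1. The KHM-5M calls rest on few counts, 0 to 142 per gene and group. Leukocyte markers summed to 0.138 to 2.77 CPM, with 0 of 1 tested called in either line. Neural markers, of interest beside EPHA5 and EFNA5, summed to 3.21 to 4.10 and 18.9 to 22.3 CPM in KHM-5M (DMSO and treated) and to 35.8 to 42.9 and 68.5 to 74.9 CPM in TTA-1, carried by MAP2, which rose in both lines. Epithelial markers summed to 2015 to 2059 and 2684 to 2968 CPM in KHM-5M (2 of 5 rose, CDH1 and KRT8) and to 1703 to 2476 and 1921 to 2047 CPM in TTA-1 (0 of 5 called). Mesenchymal markers summed to 5992 to 6226 and 6852 to 7849 CPM in KHM-5M (1 of 4 rose, 2 fell) and to 1206 to 1427 and 1204 to 1243 CPM in TTA-1 (0 of 4 called). FN1 carried most of the KHM-5M sum and its rise (3904 and 5506 CPM, against 1.73 and 2.42 CPM in TTA-1), while VIM and CDH2 fell in KHM-5M. Thyroid markers summed to 205 to 222 and 123 to 130.3 CPM in KHM-5M (1 of 3 tested rose, 1 fell) and to 411 to 449 and 427 to 449 CPM in TTA-1 (0 of 3 called), where DIO2 carried the sum. The part of these markers in the members' results was not tested.

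Across the 12 libraries the members were compared in pairs by Pearson's r of log2 CPM. The points share 4 groups, so r mostly reflects group means. The highest r were those of EPHB2 with EPHB4 (0.948) and with EFNB1 (0.930). The lowest were those of EFNA1 with EPHA2 (-0.951) and with EFNA5 (-0.940). Some pairs had a small r, such as EFNA1 with EFNB2 (0.048) and EPHA4 with EPHB2 (0.075). Among all tested protein-coding genes, those most like EPHA2 were NAV3 (0.987), GAL (0.982) and PTBP1 (0.982). Those most like EPHB2 were ABR, FRMD4A and QSOX1 (each 0.998), and those most like EPHB4 were DDA1, NDUFA1 and RHOC (each 0.994). EFNA1 was followed by PLK2 (0.992), THBS3 (0.990) and WBP1L (0.990), and EFNA5 by FAM81A (0.996), USP10 (0.995) and SLC35E3 (0.995). EFNB1 was followed by FADD (0.987), JUN (0.982) and BAG6 (0.981). EFNB2 was followed by MAMLD1 (0.987), RASSF1 (0.986) and LCN1 (0.985), and LCN1 stood at 1.03 CPM in KHM-5M DMSO and had 0 counts elsewhere. For EPHA4, with few counts, the values were lower, at 0.894 for SERPINI1, 0.882 for TBC1D9 and 0.876 for BTN3A1.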

How the data were processed

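RNA-seq was available for 12 libraries in 4 groups of 3. Per the labels' protocols, mRNA was selected on poly-T beads and primed with random hexamers, without marking the strand. The submitters' processing notes name the GRCh38 build and the tools featureCounts 1.5.0-p3, HISAT2 2.0.5 and CASAVA, without a role for each. The deposited counts are raw whole-number counts per gene, and the deposited FPKM values were scaled by the authors to gene length and to 1 library size per sample, 0.975 to 1.08 times its total count (tested on the values). In the labels 1 description is repeated for all 3 treated KHM-5M samples, and their columns were matched by the replicate numbers in the titles.

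Counts were analysed in R 4.3.3 with edgeR 4.0.16: filterByExpr on the 4 groups (minimum count 10, minimum total 15; 16218 of 58735 genes kept), TMM scaling, and a quasi-likelihood fit over the 12 libraries together, 1 coefficient for each group, leaving 8 residual degrees of freedom. The treatment effect was tested within each line, as was the difference of the 2 effects (KHM-5M less TTA-1), and the lines were compared in DMSO and under GDC-0994. Benjamini-Hochberg adjustment covered all tested genes, with calls at an adjusted p below 0.05. Each standard error is the log2 fold change over the square root of its F value. The fit was also run on simulated counts, with a shared spread for all genes and changes only in well-expressed genes. That run does not cover genes with few counts, such as EPHA4, or the GC trends of single libraries. Gene positions matched GENCODE 29 on GRCh38, and promoters came from RefSeq on GRCh38.p14.

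The members and all lists (other Eph receptors, other ephrins, forward signalling, reverse signalling, turnover, MAPK output, and thyroid, epithelial, mesenchymal, endothelial, leukocyte and neural markers) were chosen with earlier results of these data known. Of each signalling and turnover list, up to 3 risen and 3 fallen genes with the smallest adjusted p per line are named, and 1 gene that this rule takes is not reported here. Of the wider family, genes called or with at least 1 CPM in a group are named, and for likeness the 3 protein-coding genes with the highest r. Up to 2 examples were planned for each other list, and up to 3 are given. Alternatives were other scalings, no filter, a stricter filter (mean count of 50, and 1 CPM in 3 libraries), a replicate block, a fit of only the compared groups, DESeq2 1.42.0, limma 3.58.1 on log2(FPKM + 1) and log2(FPKM + 0.1), and leaving out each library. Removal of trends in length and GC content was chosen after seeing the data.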

Additional observations from a re-analysis of the deposited data

Results flagged for a closer look

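For 4 members the response to GDC-0994 differed between KHM-5M and TTA-1 in edgeR's test of the difference itself (KHM-5M minus TTA-1, log2 scale). The difference was -1.59 for EFNB2, which fell in KHM-5M in 3 of 3 libraries to below every control and overlapped its controls in TTA-1. It was -0.76 for EFNA5, with the same arrangement of libraries, and 0.85 for EFNA1, whose treated libraries were above the controls in both lines. It was -0.73 for EPHA2, whose treated libraries were below the controls in both lines. Leaving out each library in turn, the 4 differences ranged from -1.67 to -1.43 for EFNB2, from -0.85 to -0.62 for EFNA5, from 0.80 to 0.98 for EFNA1 and from -0.76 to -0.62 for EPHA2, and each remained called.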

How the results depend on the processing

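Of the single-member results under the alternatives, 872 kept their direction and their side of the threshold, 15 lost the call, 8 gained one and 40 changed sign. The 40 were all in results that were not called. In KHM-5M, 1 member was called higher in place of 2 with the stricter filter and with limma on log2(FPKM + 1) or log2(FPKM + 0.1), since EPHA4 was not tested there. In TTA-1, 556 genes were called, against 1206 with no filter, 206 with only the 2 groups compared, 1030 with the length and GC trends removed, 915 with the DESeq2 Wald test, 341 with limma on log2(FPKM + 1) without a filter, and 259 to 2620 leaving out each library, the highest without TTA-1 DMSO replicate 2. Members lower in TTA-1 numbered 1 with only the 2 groups compared and in the 3 limma fits, and 1 to 4 leaving out each library. Members higher there numbered 1 with the trends removed. Members higher for the difference, EPHA4 included, numbered 1 to 3 leaving out each library. With limma on log2(FPKM + 1), EFNB2 in KHM-5M was -1.003. With the trends removed, EPHA2 between the lines in DMSO was -1.37.

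Signs turned near 0. EFNA5 in TTA-1 was -0.0097 with no filter, -0.0014 with only the 2 groups and -0.0515 with the trends removed. The EPHB2 difference was 0.0119 with DESeq2 size factors, 0.0445 with upper quartile scaling, 0.0142 with library totals, 0.0106 with no filter and 0.0120 with the Wald test. The EFNB1 difference was 0.0225, 0.0550, 0.0232, 0.0204 and 0.0229 under the same 5, 0.00925 with the stricter filter and 0.0260 with the trends removed. Leaving out each library gave -0.0471 to 0.104 for EPHB4 in KHM-5M, -0.0362 to 0.0577 for EFNA5 in TTA-1, -0.11 to 0.12 and -0.17 to 0.13 for the EPHB2 and EFNB1 differences, and -1.91 to 0.74 for EPHA4 between the lines in DMSO. Upper quartile scaling and library totals moved the median of all genes between the lines under GDC-0994 by 0.16 and 0.135.

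The replicate numbers showed no sign of pairing the libraries. The correlation of deviations was -0.0453 to 0.0537 for the same number and -0.105 to 0.124 for different numbers. With so few libraries this check cannot exclude pairing. With a replicate block, 7849 genes were called in KHM-5M (8069 without), 529 in TTA-1 and 4225 for the difference, and the member counts were the same (2 higher and 5 lower in KHM-5M, 0 and 2 in TTA-1). EPHA4, with 6 to 59 counts per group, is limited by depth.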
